A study of Mus musculus with 8 samples.

Results

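Cpn2, Tns1, Ndrg2, Smarca2, Inpp5a, Lrig1 and Prdm16 are 7 mouse genes that each carry a CpG of an epigenetic clock for the liver, and their methylation was followed along the whole gene in hepatocytes of mid-aged and young mice. A tested CpG had at least 5 reads in every mouse after its strands were summed, and it was taken as a member if it lay in the gene body (GENCODE vM21 on GRCm38, which is mm10) or in the 1500 bases upstream of the start site. The 7 genes held 1231 of the 897285 CpGs tested in the series. Of these, 27 lay within 500 bases of the clock CpG and the other 1204 lay farther away, and the description below is about the 1204. The genes were listed for their clock CpG by a rule that itself uses no methylation value, but the list was drawn up with earlier results of these data known. The study had also selected liver loci of the clock by a large methylation difference in mid-aged mice, and of these genes it names Tns1, Cpn2 and Inpp5a there. Differences near the clock CpGs are therefore not independent of how the loci were chosen. Other genes that carry a CpG of the clock were not analysed here. The study lists the CpG of Prdm16 among these but used it as a control with high methylation throughout. At the CpG of Smarca2 its age difference in liver tissue was not significant.

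DNA methylation was measured by reduced representation bisulfite sequencing (RRBS), which reads DNA fragments cut by the enzyme MspI at CCGG. Hepatocytes were isolated by perfusion from female C57Bl6/J mice, 4 mid-aged (40 weeks) and 4 young (10 weeks), with 1 library per mouse. No allele or agent differed between the groups, and both received a control diet. The mice of a group are separate animals, but each library was made and sequenced once, so the spread between mice also holds the technical spread.

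An epigenetic clock is a set of CpGs whose methylation levels, weighted and summed, track the age of a tissue. In mammalian liver, CpG-dense start sites are usually unmethylated and the bodies of genes mostly methylated, while distal regulatory elements inside introns often lie between these states. A clock CpG can therefore sit in a stretch whose level differs from that of its gene, and the level of the whole gene is a separate measurement.

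The 7 genes have unlike roles. Cpn2 encodes the non-catalytic subunit of carboxypeptidase N, a plasma enzyme made in the liver that trims kinins and complement peptides. Tns1 encodes tensin 1, which ties integrins to the actin cytoskeleton at adhesion sites. Ndrg2 encodes a cytoplasmic stress-responsive protein of the NDRG family. Smarca2 encodes BRM, an ATPase of the SWI/SNF chromatin remodeling complexes. Inpp5a encodes a phosphatase that inactivates the calcium-releasing messenger inositol trisphosphate. Lrig1 encodes a membrane protein that lowers signaling by receptors of the EGF family. Prdm16 encodes a zinc finger transcription regulator known from brown fat and stem cells.

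The windows that carry the results are shown first, as the forward strand of GRCm38 with every tested CpG in capitals. The first 4 are 121 bases centred on the CpGs that passed the test, the fifth is centred on the CpG with the largest positive difference without overlap between the groups (10 or more reads per mouse), and the sixth spans the Lrig1 cluster that had the smallest p of all clusters beyond 500 bases.
Tns1 chr1:73987972-73988092: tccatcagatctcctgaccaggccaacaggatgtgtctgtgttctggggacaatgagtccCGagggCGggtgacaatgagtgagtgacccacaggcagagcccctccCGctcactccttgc
Ndrg2 chr14:51908821-51908941: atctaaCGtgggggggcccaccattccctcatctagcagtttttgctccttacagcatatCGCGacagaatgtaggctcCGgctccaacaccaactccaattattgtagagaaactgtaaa
Ndrg2 chr14:51910654-51910774: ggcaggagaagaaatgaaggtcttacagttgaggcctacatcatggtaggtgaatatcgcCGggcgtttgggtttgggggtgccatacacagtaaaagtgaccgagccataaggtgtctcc
Smarca2 chr19:26608541-26608661: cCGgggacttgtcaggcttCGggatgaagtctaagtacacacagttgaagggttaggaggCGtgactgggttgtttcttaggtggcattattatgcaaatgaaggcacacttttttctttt
Inpp5a chr7:139562672-139562792: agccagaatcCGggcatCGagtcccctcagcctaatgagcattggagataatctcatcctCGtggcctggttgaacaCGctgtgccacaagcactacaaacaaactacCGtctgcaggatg
Lrig1 chr6:94607882-94608113: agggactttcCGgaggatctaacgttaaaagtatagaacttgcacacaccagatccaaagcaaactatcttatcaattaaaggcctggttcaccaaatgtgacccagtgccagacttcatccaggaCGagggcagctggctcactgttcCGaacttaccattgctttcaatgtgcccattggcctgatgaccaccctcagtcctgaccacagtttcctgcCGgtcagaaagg

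The Tns1 window holds 3 tested CpGs and no CCGG. The first Ndrg2 window has 4 tested CpGs, of which CGCG is an adjoining pair, and its CCGG lies 18 bases from the central CpG. In the second Ndrg2 window the central CpG is itself in the CCGG, and the other 3 CpGs were not covered deeply enough to be tested. The motif CCGG, which reads the same on both strands, was present in 81.8% of windows of 121 bases around all tested CpGs, so its presence or absence only describes these windows.

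Coverage differed between the groups. Reads over CpGs numbered 84639955 to 118395064 in the libraries of mid-aged mice and 46321447 to 72710972 in those of young mice, with a median coverage of 41 to 76 reads per tested CpG in mid-aged mice and 29 to 51 in young mice. Over the 1204 CpGs the median was 57 reads in mid-aged mice and 40 in young mice. The mean methylation of all tested CpGs was 44.215 to 44.266% in mid-aged mice and 43.646 to 44.1% in young mice, a difference of 0.32 points (two-sided exact permutation test, p = 0.0286, the smallest that 4 against 4 mice allow). The promoters of marker genes were tested as far as covered, and limma gave none an adjusted p below 0.309. The mean over 3 of 12 hepatocyte markers was 35.3 to 39.2% in mid-aged mice and 28.6 to 37.2% in young mice. For other liver cells, 1 of 11 markers of Kupffer cells and leukocytes had 79 to 96.6% in mid-aged mice and 74.9 to 97.4% in young mice, and 1 of 9 of sinusoidal endothelial cells had 0.715 to 3.81% in mid-aged mice and 0.742 to 7.09% in young mice. The mean of 6 of 8 stellate cell markers was 17.9 to 19.6% in mid-aged mice and 18.3 to 20.6% in young mice, and that of 4 of 7 cholangiocyte markers was 36.3 to 40.1% in mid-aged mice and 36.7 to 39.6% in young mice. The part of other cell types in the results below was not tested beyond these values.

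Methylation of the 7 genes beyond 500 bases changed at few CpGs, and every change that passed the test was a loss in mid-aged mice. A CpG was called when the quasi-binomial test gave an adjusted p under 0.05, the group means differed by at least 5 percentage points and the variance between mice was under 0.05 in both groups. Of the 1204 CpGs 4 were called (0.332%), where 0.163% of all tested CpGs were called. All 4 were lower in mid-aged mice, and the share called lower was 0.102% over all CpGs. They lay in Tns1 (1), Ndrg2 (2) and Smarca2 (1), while Cpn2, Inpp5a, Lrig1 and Prdm16 had none. These calls rest on a moderation that leaves out CpGs with a dispersion of 0, a choice made after moderation with all CpGs had given no call. With all libraries thinned to the depth of the smallest, 1 of the 4 remained, the CpG of Tns1, and with limma on M values or with all CpGs in the moderation 0 remained. The differences at the 3 CpGs that lost their call by thinning stayed close to those at full depth, with -36.4 points (adjusted p = 0.0519) and -33.4 points (0.0977) in Ndrg2 and -12.6 points (0.114) in Smarca2. At an unadjusted p under 0.05 there were 131 CpGs (10.9%, against 9.09% of all CpGs), 67 lower and 64 higher in mid-aged mice. The values of the groups did not overlap at 45 CpGs (3.74%, against 3.57% of all CpGs), 26 lower and 19 higher. Over all 1204 CpGs 580 were lower, 594 higher and 30 equal in mid-aged mice, with a median difference of 0 points, where 41.6% of all tested CpGs were lower and the median was 0.212.

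**Figure D1:**
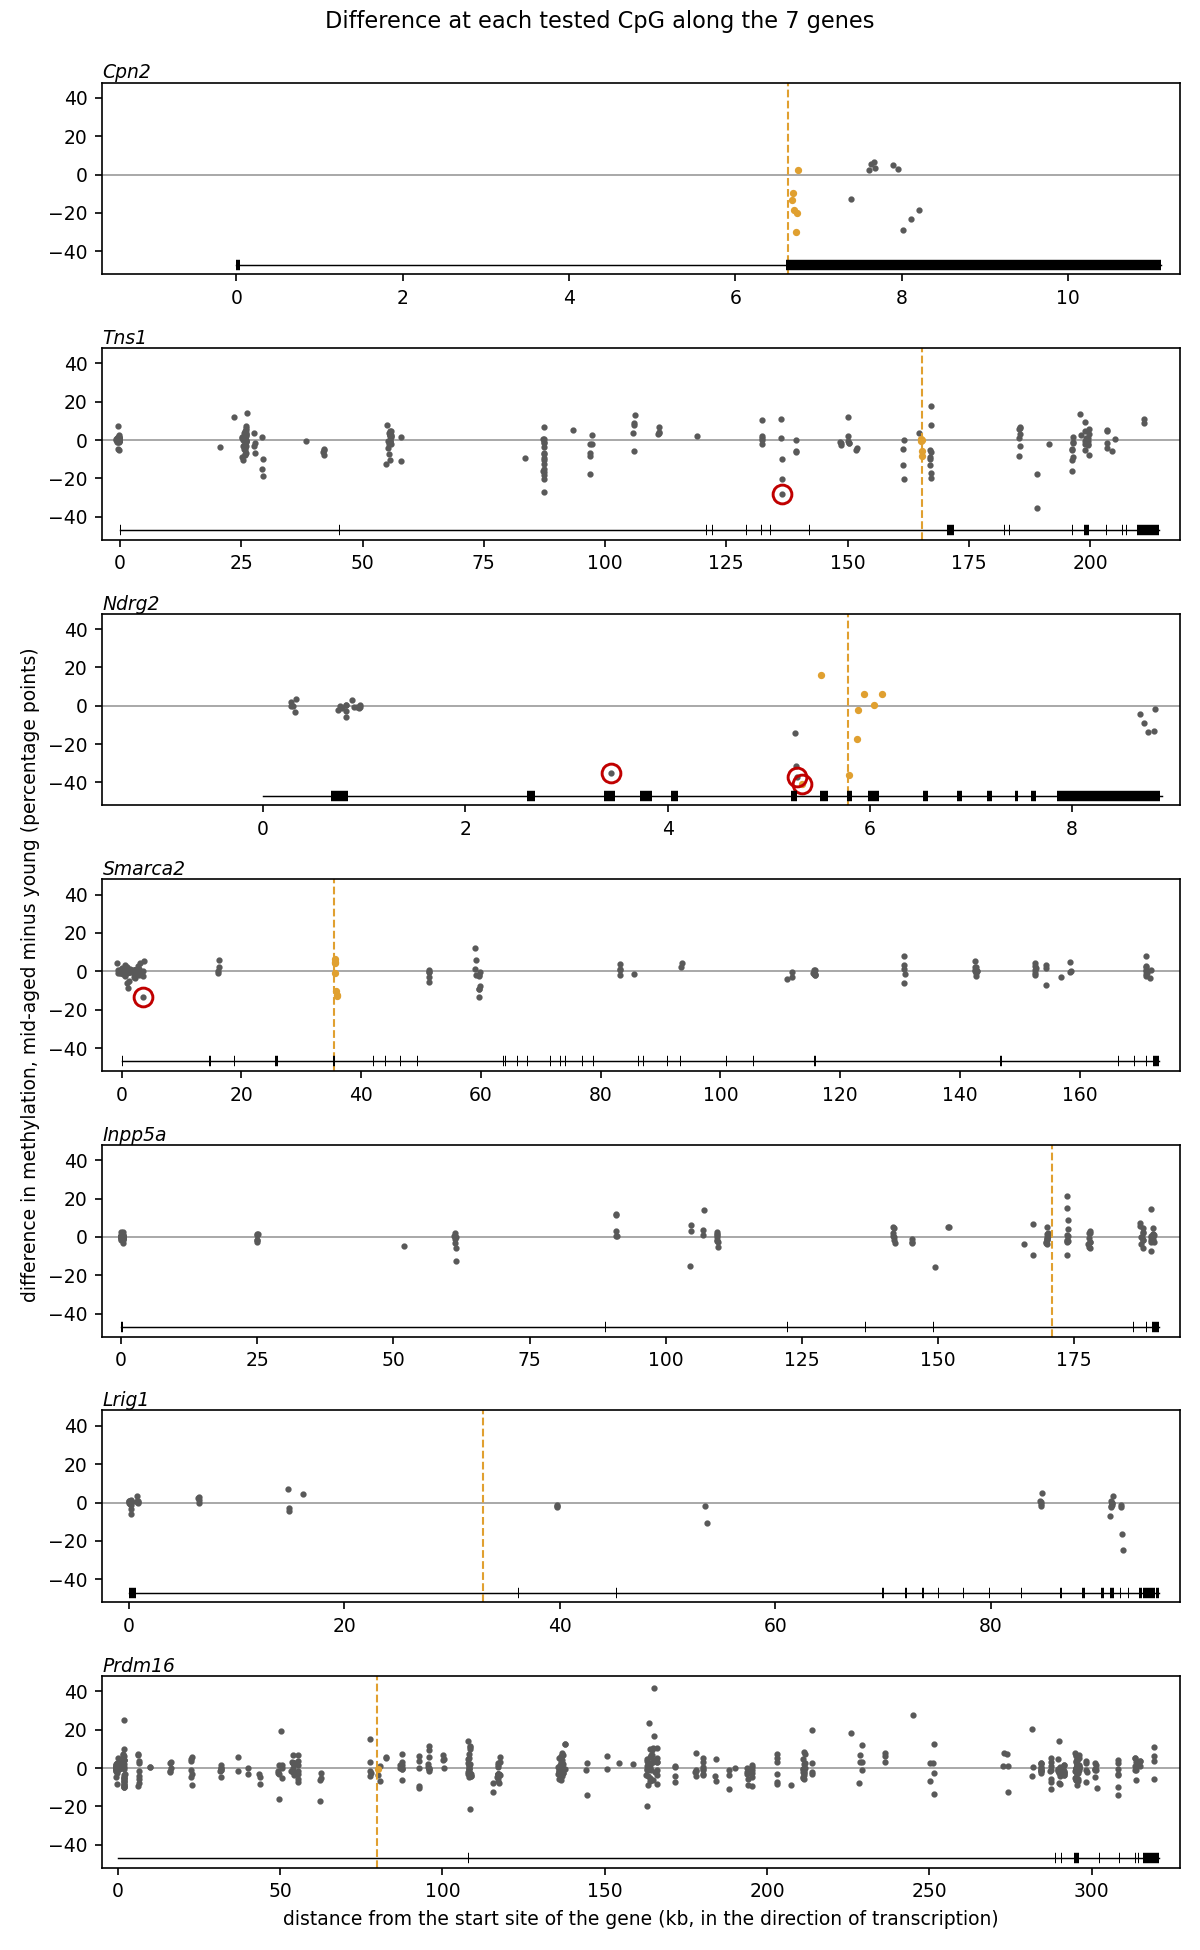
Difference in methylation (mid-aged minus young, percentage points) at each tested CpG against the distance from the start site of the gene in kb, 1 panel per gene. Grey points lie beyond 500 bases from the clock CpG, orange points within 500 bases, the dashed line marks the clock CpG, red circles mark called CpGs and black blocks are exons. The circled CpGs beyond 500 bases are 1 in Tns1, 2 in Ndrg2 and 1 in Smarca2, all below 0, and the third circle in Ndrg2 is the CpG 455 bases from its clock CpG.

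The 4 called CpGs were all of intermediate level, that is between 20 and 80% on average over the 8 mice. Only 189 of the 1204 CpGs were of this kind, against 434 with a low level and 581 with a high level. Among them 4 of 189 were called (2.12%), and over all tested CpGs the intermediate level held 13.7% of CpGs but 83.2% of calls, with 0.989% of them called. None of the 487 CpGs in dense sequence (at least 10 CpGs within 100 bases) was called by the quasi-binomial test. An unadjusted p under 0.05 was found at 47 of them (9.65%, against 9.09% of all tested CpGs). The called CpGs were spread over sparse (2 of 266, 0.752%, at most 4 CpGs) and middle density (2 of 451, 0.443%). By gene feature, 2 of 168 coding CpGs (1.19%) and 2 of 842 intronic CpGs (0.238%) were called. None was called of 107 upstream of the transcript, 65 in 5′ UTRs and 22 in 3′ UTRs. At an unadjusted p under 0.05 these last groups had 8 (7.48%), 3 (4.62%) and 3 CpGs (13.6%). Over all tested CpGs 0.163% were called, so 0 calls in groups of this size do not show a pattern of location.

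Distance from the clock CpG was examined next. Up to 2000 bases 39 CpGs were tested, 24 of them lower in mid-aged mice, with a median difference of -2.58 points. Here 1 was called and 11 (28.2%) had an unadjusted p under 0.05, 10 of these lower, where 0.163% of all tested CpGs were called, 9.09% were under this p and 41.6% were lower. Between 2000 and 10000 bases 42 of 69 were lower (60.9%), 1 was called, 11.6% were under this p and the median was -0.75. Between 10000 and 50000 bases 185 of 384 were lower (48.2%), 2 were called, 10.4% were under this p and the median was 0. Beyond 50000 bases 329 of 712 were lower (46.2%), none was called although 72 had an unadjusted p under 0.05 (10.1%, close to the share over all CpGs), and the median was 0.074. The 39 nearest CpGs belonged to Inpp5a (11), Cpn2 (10), Tns1 (10), Prdm16 (5) and Ndrg2 (3), so distance and gene cannot be told apart in these counts. The 11 with an unadjusted p under 0.05 were 3 each in Ndrg2, Tns1 and Inpp5a and 1 each in Cpn2 and Prdm16. Neighbors can share reads, so these are not separate observations.

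Ndrg2 had the clearest pattern. The gene (ENSMUSG00000004558.15) lies on the minus strand at chr14:51905271-51914158 and its clock CpG is in coding exon 8, 5786 bases from the start site. Of its 27 CpGs beyond 500 bases, 18 around the start site and the first exon were nearly unmethylated and 8 were of intermediate level. All 8 of these were lower in mid-aged mice, with a mean of 44.5 ± 6.36% in mid-aged mice and 64.2 ± 5.81% in young mice (SD, n = 4 each, as in all values below unless an SE is named). Of the 8, 4 lie in the 3′ UTR, 3 in coding exon 6 and 1 in coding exon 3. Neighbors can share reads, so these are not 8 separate observations.

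A called CpG in coding exon 6, 509 bases from the clock CpG and so just outside the limit, was methylated at 48.5, 15.1, 34.4 and 33.3% in the mid-aged mice and at 70, 60.5, 79.2 and 69.9% in the young mice. The highest mid-aged mouse was below the lowest young mouse. The mean was 32.8 ± 13.7% in mid-aged mice and 69.9 ± 7.61% in young mice, a loss of 37.1 points (quasi-binomial test, adjusted p = 0.0138) over 240 and 199 reads. Its neighbor 2 bases away, the second CpG of CGCG in the printed window, had 41.6% in mid-aged mice and 73% in young mice and was not called (adjusted p = 0.145). Here mid-aged mouse 4 with 64.9% lay above young mouse 2 with 55.3%, so the groups overlapped. The third CpG of the window in exon 6 had 44.5% in mid-aged mice and 58.5% in young mice (adjusted p = 0.544). The first CpG of the window lies just inside the limit, 455 bases from the clock CpG, and had 30.2% in mid-aged mice and 71% in young mice, a loss of 40.8 points (adjusted p = 0.00693). Of all 8 CpGs of Ndrg2 inside the limit, 4 were lower and 4 higher in mid-aged mice.

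The other called CpG of Ndrg2 is in coding exon 3, 2342 bases from the clock CpG. It had 46.2, 24.2, 28.6 and 45.8% in the mid-aged mice, against 69.8, 70.6, 80 and 65.1% in the young mice. Again no mid-aged mouse reached the lowest young mouse. The mean was 36.2 ± 11.4% in mid-aged mice and 71.4 ± 6.25% in young mice, a loss of 35.2 points (adjusted p = 0.0151) over 169 and 217 reads. No CpG between exon 3 and exon 6 was tested.

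The 5 CpGs in the 3′ UTR of Ndrg2 were also all lower, with 58.5 ± 3.65% in mid-aged mice and 67 ± 6.02% in young mice, but the smallest adjusted p among them was 0.478. At the start of the gene the level was low in both groups. A cluster of 13 CpGs over the first exon and intron had 0.473, 1.12, 1.05 and 1.16% in mid-aged mice and 1.65, 1.68, 2.47 and 1.6% in young mice, which did not overlap (difference -0.898 points, limma, adjusted p = 0.539). The promoter had 3.77 ± 1.56% in mid-aged mice and 3.26 ± 2.25% in young mice (adjusted p = 0.933).

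The mean over the 27 CpGs of Ndrg2 was 18.4, 16.2, 16.2 and 20.1% in the mid-aged mice, against 26.1, 21.4, 25.1 and 23.4% in the young mice. All mid-aged mice were below all young mice. The difference of -6.26 ± 1.23 points (SE) had an unadjusted p of 0.000937 in limma and an adjusted p of 0.0799 over 21968 gene means, so it was not called. With a minimum of 3 reads per mouse it was -7.04 points with an adjusted p of 0.0395 and was called. It was -3.61 points with 2000 bases around the clock CpG left out (adjusted p = 0.0862) and -18 points with CpGs weighted by their reads (adjusted p = 0.147), neither of them called. Weighting gave the unmethylated start more weight in mid-aged mice. Its cluster of 13 CpGs had 3901 reads in mid-aged mice and 1808 in young mice, while the called CpG in exon 3 had 169 and 217. How much of the -18 points comes from these unequal reads was not tested.

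**Figure D2:**
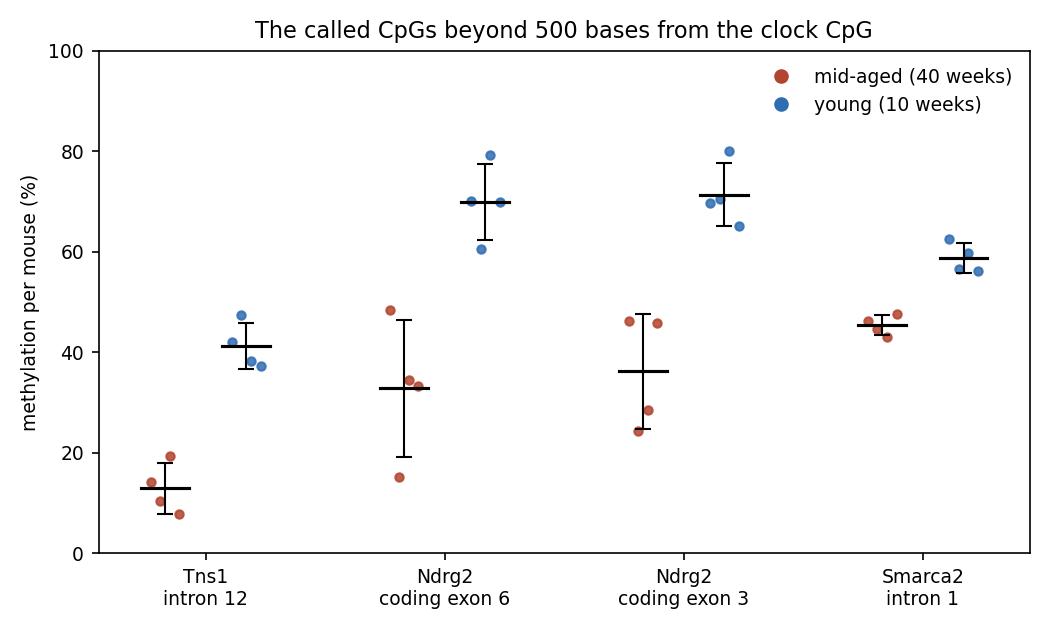
Methylation (%) per mouse at the 4 called CpGs beyond 500 bases from the clock CpG, with the gene and the exon or intron under each pair. Points are single mice, mid-aged to the left and young to the right, with the mean and SD of 4 mice. The groups do not overlap at any of the 4, and the means range from 12.9 to 45.4% in mid-aged mice and from 41.2 to 71.4% in young mice.

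Tns1 (ENSMUSG00000055322.15, minus strand, chr1:73910231-74124449) has its clock CpG in intron 18, which was the only clock CpG of the 7 that could be tested itself. Within 500 bases of it Tns1 had 5 CpGs, with 82.1 ± 1.79% in mid-aged mice and 85 ± 8.44% in young mice. None of the 5 had an unadjusted p under 0.05 in the quasi-binomial test. Of its 236 CpGs beyond 500 bases 38 had an unadjusted p under 0.05 (16.1%, against 9.09% of all tested CpGs). Of these, 24 were lower in mid-aged mice. Without overlap, 9 were lower and 3 higher (5.08%, against 3.57% of all tested CpGs). The called CpG lies in intron 12, 28879 bases from the clock CpG. It was methylated at 14.1, 10.3, 19.4 and 7.83% in the mid-aged mice and at 42, 47.4, 38.2 and 37.3% in the young mice. All young mice were above all mid-aged mice. With 12.9 ± 5.04% in mid-aged mice and 41.2 ± 4.58% in young mice the loss was 28.3 points (adjusted p = 0.00254) over 402 and 366 reads, the smallest adjusted p of the 1204 CpGs.

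Around the called CpG in intron 12 the differences were unequal. The next CpG in the printed window, 6 bases away, had 63.5 ± 9.41% in mid-aged mice and 83.7 ± 7.26% in young mice, a difference of -20.2 points without overlap that was not called (adjusted p = 0.182). The third CpG of the window had 88.5% in mid-aged mice and 87.4% in young mice. A CpG beyond the end of the window was higher in mid-aged mice without passing the test, with 83.9% in mid-aged mice and 72.9% in young mice (adjusted p = 0.553). The cluster of 5 CpGs that holds them had 52.1 ± 4.44% in mid-aged mice and 61.3 ± 3.84% in young mice (limma, adjusted p = 0.547).

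Other CpGs of Tns1 differed as much without passing the test. In intron 3, at the annotated start of the transcript Tns1-207 inside the gene, the CpG with the second largest difference among those with at least 10 reads in every mouse had 0, 3.28, 15.4 and 1.85% in the mid-aged mice and 63.2, 15, 32 and 19.2% in the young mice. The groups overlapped narrowly, and the spread in young mice was wide with young mouse 1 at the top (-27.2 points, adjusted p = 0.351, and -16.9 points without that mouse). The cluster of 17 CpGs around it had 6.19, 8.59, 12.7 and 7.82% in mid-aged mice and 31.5, 15.2, 15.6 and 10.2% in young mice, and its difference of -9.28 points shrank to -4.84 without young mouse 1. A CpG in intron 22, with as few as 8 reads in 1 mouse, had 14.2 ± 7.21% in mid-aged mice and 49.8 ± 10.4% in young mice without overlap (adjusted p = 0.171).

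Tns1 carried several low patches far from its start site. Of its clusters more than 2000 bases from the start, 7 with 90 CpGs had a mean under 20% in both groups, and 1 of these held an annotated start. Lower means in mid-aged mice were found in 5 of the 7, and 3 had an unadjusted p under 0.05 in limma. In the cluster at chr1:74027505-74027643 in intron 3 the mid-aged mice had 7.23, 9.47, 5.94 and 4.01% and the young mice 10.2, 15.4, 25.9 and 9.85%. These groups did not overlap (-8.68 points, adjusted p = 0.508), and without young mouse 3 the difference was -5.15 points. A patch of 20 CpGs in intron 2 had 3.27 ± 1.47% in mid-aged mice and 2.74 ± 1.69% in young mice, and one of 37 CpGs in intron 1 had 15.5 ± 4.38% in mid-aged mice and 15.5 ± 4.2% in young mice.

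The mean of Tns1 was 39.3, 38.7, 39.3 and 37.9% in the mid-aged mice, against 41.4, 41.5, 41 and 38.1% in the young mice. Young mouse 4 lay above mid-aged mouse 4 and below the other mid-aged mice, so the groups overlapped. The difference was -1.7 ± 0.832 points (SE; limma, adjusted p = 0.482). The promoter, with 43 CpGs, had 1.45 ± 0.1% in mid-aged mice and 1.19 ± 0.26% in young mice (adjusted p = 0.748).

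Smarca2 (ENSMUSG00000024921.17, plus strand, chr19:26605050-26778322) has its clock CpG in coding exon 5, 35471 bases from the start site. Within 500 bases of it Smarca2 had 7 CpGs, of which 2 were lower and 3 higher at an unadjusted p under 0.05 in the quasi-binomial test (71.4%, against 9.09% of all tested CpGs). Its called CpG lies in intron 1, 3551 bases from the start site and 31920 bases from the clock CpG. The mid-aged mice had 46.3, 44.6, 43.1 and 47.7% and the young mice 62.5, 56.6, 59.7 and 56.1%. No values overlapped, and the spread within each group was small. The mean was 45.4 ± 1.98% in mid-aged mice and 58.7 ± 2.96% in young mice, a loss of 13.3 points (adjusted p = 0.0115) over 1925 and 1212 reads, the deepest of the 4 called CpGs.

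This CpG sits at the border of the unmethylated region around the Smarca2 start. In the printed window the 2 CpGs before it had 17.9 and 10.2% in mid-aged mice and 20.3 and 9.82% in young mice. The next tested CpG after it, outside the window, had 74.4% in mid-aged mice and 69.2% in young mice (adjusted p = 0.595). In intron 27 a cluster of 10 CpGs at the annotated start of Smarca2-240 had 1.8 ± 0.275% in mid-aged mice and 1.11 ± 0.593% in young mice (limma, unadjusted p = 0.11).

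Most of Smarca2 was either low or high, with 113 low, 64 high and 3 intermediate CpGs. Its mean was 36 ± 0.404% in mid-aged mice and 36.1 ± 0.442% in young mice (difference -0.13 points, adjusted p = 0.933). The named CpG with the largest difference that was not called is in intron 10, with 82.6 ± 2.13% in mid-aged mice and 96.2 ± 5.93% in young mice, without overlap (adjusted p = 0.496). The promoter had 1.27% in mid-aged mice and 0.978% in young mice over 34 CpGs (adjusted p = 0.822).

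Cpn2 (ENSMUSG00000023176.9, minus strand, chr16:30256378-30267499) could be followed only in its last exon, coding exon 2, where its 10 CpGs lay 756 to 1579 bases from the clock CpG. None was called, and 1 had an unadjusted p under 0.05 (10%, against 9.09% of all tested CpGs). The 4 CpGs of intermediate level were all lower in mid-aged mice, with 30.9 ± 3.44% in mid-aged mice and 51.8 ± 16.9% in young mice. The 6 CpGs of low level were all higher, with 13.8 ± 5.17% in mid-aged mice and 9.47 ± 2.51% in young mice. Neighbors among these CpGs can share reads, so they are not separate observations. The CpG with the largest difference had 16.4, 16.9, 12.5 and 31.1% in the mid-aged mice, against 67.4, 59.4, 42.1 and 23.5% in the young mice. Young mouse 4 fell into the range of the mid-aged mice, so the groups overlapped (-28.9 points, adjusted p = 0.39). Without young mouse 4 the difference was -37.1 points and the CpG was called (adjusted p = 0.0199). The other named CpG of Cpn2, 1035 bases from the clock CpG, had 15.8 ± 7.88% in mid-aged mice and 9.42 ± 1.39% in young mice with overlap (6.42 points, adjusted p = 0.63), and 2.93 points without mid-aged mouse 4.

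The gene mean of Cpn2 was 17.2, 24.7, 16.7 and 23.8% in the mid-aged mice and 20.3, 37.1, 28.2 and 19.9% in the young mice. It overlapped widely (-5.77 ± 3.96 points, SE; adjusted p = 0.629). Within 500 bases of the clock CpG, 6 further CpGs of the same exon had 75.5 ± 4.13% in mid-aged mice and 90.4 ± 3.9% in young mice, a difference of -14.9 points without overlap (limma, unadjusted p = 0.000486, adjusted p = 0.136). The promoter of Cpn2 was not tested, since fewer than 3 of its CpGs were covered.

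Inpp5a (ENSMUSG00000025477.14, plus strand, chr7:139389109-139579652) had no called CpG among 138. An unadjusted p under 0.05 was found at 13 of them (9.42%, against 9.09% of all tested CpGs), 8 lower and 5 higher. Outside its unmethylated start the gene was highly methylated, with 98 high, 9 intermediate and 31 low CpGs. The largest difference was in intron 11, at the center of the printed window and 2783 bases from the clock CpG, which lies in the same intron. The mid-aged mice had 81.1, 85.2, 90.7 and 84.8% and the young mice 64.4, 63, 73.7 and 54.4%. All mid-aged mice were above all young mice. The difference of 21.6 points had an adjusted p of 0.11, so it was not called. The nearest CpG before it in the window had 83.6% in mid-aged mice and 68.3% in young mice (adjusted p = 0.774), and the nearest after it had 97.8% in mid-aged mice and 96.9% in young mice.

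The other named CpG of Inpp5a lies in intron 4, 66459 bases from the clock CpG, with 32.7 ± 5.85% in mid-aged mice and 47.7 ± 4.98% in young mice, without overlap (adjusted p = 0.236). The gene mean was 71.5 ± 0.467% in mid-aged mice and 71.2 ± 0.344% in young mice (difference 0.25 points, adjusted p = 0.902). The promoter had 0.648% in mid-aged mice and 0.551% in young mice over 31 CpGs (adjusted p = 0.932).

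Lrig1 (ENSMUSG00000030029.14, minus strand, chr6:94604529-94700158) had no called CpG among 62. An unadjusted p under 0.05 was found at 8 of them (12.9%, against 9.09% of all tested CpGs), 2 lower and 6 higher. The clock CpG of Lrig1 in intron 1 is isolated, and the nearest tested CpG was 6847 bases away. The cluster of the printed window, 4 CpGs in intron 16 and exon 16 near the end of the gene, had 50.8, 60.5, 57.1 and 58.8% in the mid-aged mice and 67.5, 68, 71 and 65.2% in the young mice. The groups did not overlap. The difference of -11.1 ± 3.44 points (SE) had an unadjusted p of 0.0105 and an adjusted p of 0.404 in limma. From the first to the last CpG of the window the differences were -24.6, -16.2, -2.14 and -1.45 points, so the cluster difference rested on its first 2 CpGs. The second of these had 27.2 ± 3.59% in mid-aged mice and 43.4 ± 19.2% in young mice, with young mouse 1 at 71.7%, and without that mouse its difference was -6.72 points.

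A CpG in coding exon 15 of Lrig1 had 92.3, 88.9, 95.9 and 90.3% in the mid-aged mice, against 100, 100, 100 and 96.5% in the young mice. These did not overlap, but the difference of -7.26 points was not called (adjusted p = 0.531). The gene mean was 37.8 ± 0.807% in mid-aged mice and 38.7 ± 0.974% in young mice (difference -0.87 points, adjusted p = 0.659). The promoter, with 26 CpGs, had 0.912% in mid-aged mice and 0.943% in young mice (adjusted p = 0.989).

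Prdm16 (ENSMUSG00000039410.16, minus strand, chr4:154316125-154636873) is the longest of the genes and held 551 of the 1204 CpGs, yet none was called. At an unadjusted p under 0.05 there were 20 lower and 25 higher (8.17%, against 9.09% of all tested CpGs). Without overlap, 8 were lower and 7 higher (2.72%, against 3.57% of all tested CpGs). The 116 CpGs of intermediate level had 58.1 ± 0.395% in mid-aged mice and 57.2 ± 1.94% in young mice. The largest difference with at least 10 reads in every mouse was in intron 3. There the mid-aged mice had 64.7, 74.6, 54.8 and 71.2% and the young mice 26.3, 48, 53.9 and 56.7%. Young mouse 4 was above mid-aged mouse 3, so the groups overlapped (20.1 points, adjusted p = 0.43). The second named CpG, in intron 1 and 17370 bases from the clock CpG, had 48.3, 56.6, 35.1 and 64% in the mid-aged mice, against 66.7, 73.9, 71.4 and 61.1% in the young mice. These overlapped as well (-17.3 points, adjusted p = 0.581). A CpG with as few as 5 reads, also in intron 3, had 56.6 ± 11.7% in mid-aged mice and 14.8 ± 11.2% in young mice without overlap (41.7 points, adjusted p = 0.241).

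The gene mean of Prdm16 was 67.7% in each of the mid-aged mice and 68, 67.2, 67.5 and 67.2% in the young mice. The groups overlapped (0.22 points, adjusted p = 0.907). Its promoter, with 68 CpGs, had 1.82 ± 0.192% in mid-aged mice and 1.42 ± 0.145% in young mice, the smallest unadjusted p of the 6 promoters tested (limma, unadjusted p = 0.0817, adjusted p = 0.609). In Prdm16, 87 CpGs also lie in B230104I21Rik and 5 in Gm13133, and in Smarca2, 10 also lie in 4931403E22Rik and 4 in Gm20616. None of these was called, and bisulfite reads do not tell overlapping genes apart.

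Along the genes the level followed the distance from the start site in both groups. Upstream of the start site the 102 CpGs had 1.66 ± 0.129% in mid-aged mice and 1.42 ± 0.25% in young mice. In the first 500 bases 105 CpGs had 1.17 ± 0.297% in mid-aged mice and 0.888 ± 0.2% in young mice. Both stayed under 2% in every mouse. More than 10000 bases from the start site 834 CpGs had 74.2 ± 0.274% in mid-aged mice and 74.6 ± 0.701% in young mice, and these groups overlapped. Within the gene bodies, 12 clusters more than 2000 bases from the start site had a mean under 20% in both groups, 7 in Tns1, 3 in Smarca2, 1 in Cpn2 and 1 in Lrig1.

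**Figure D3:**
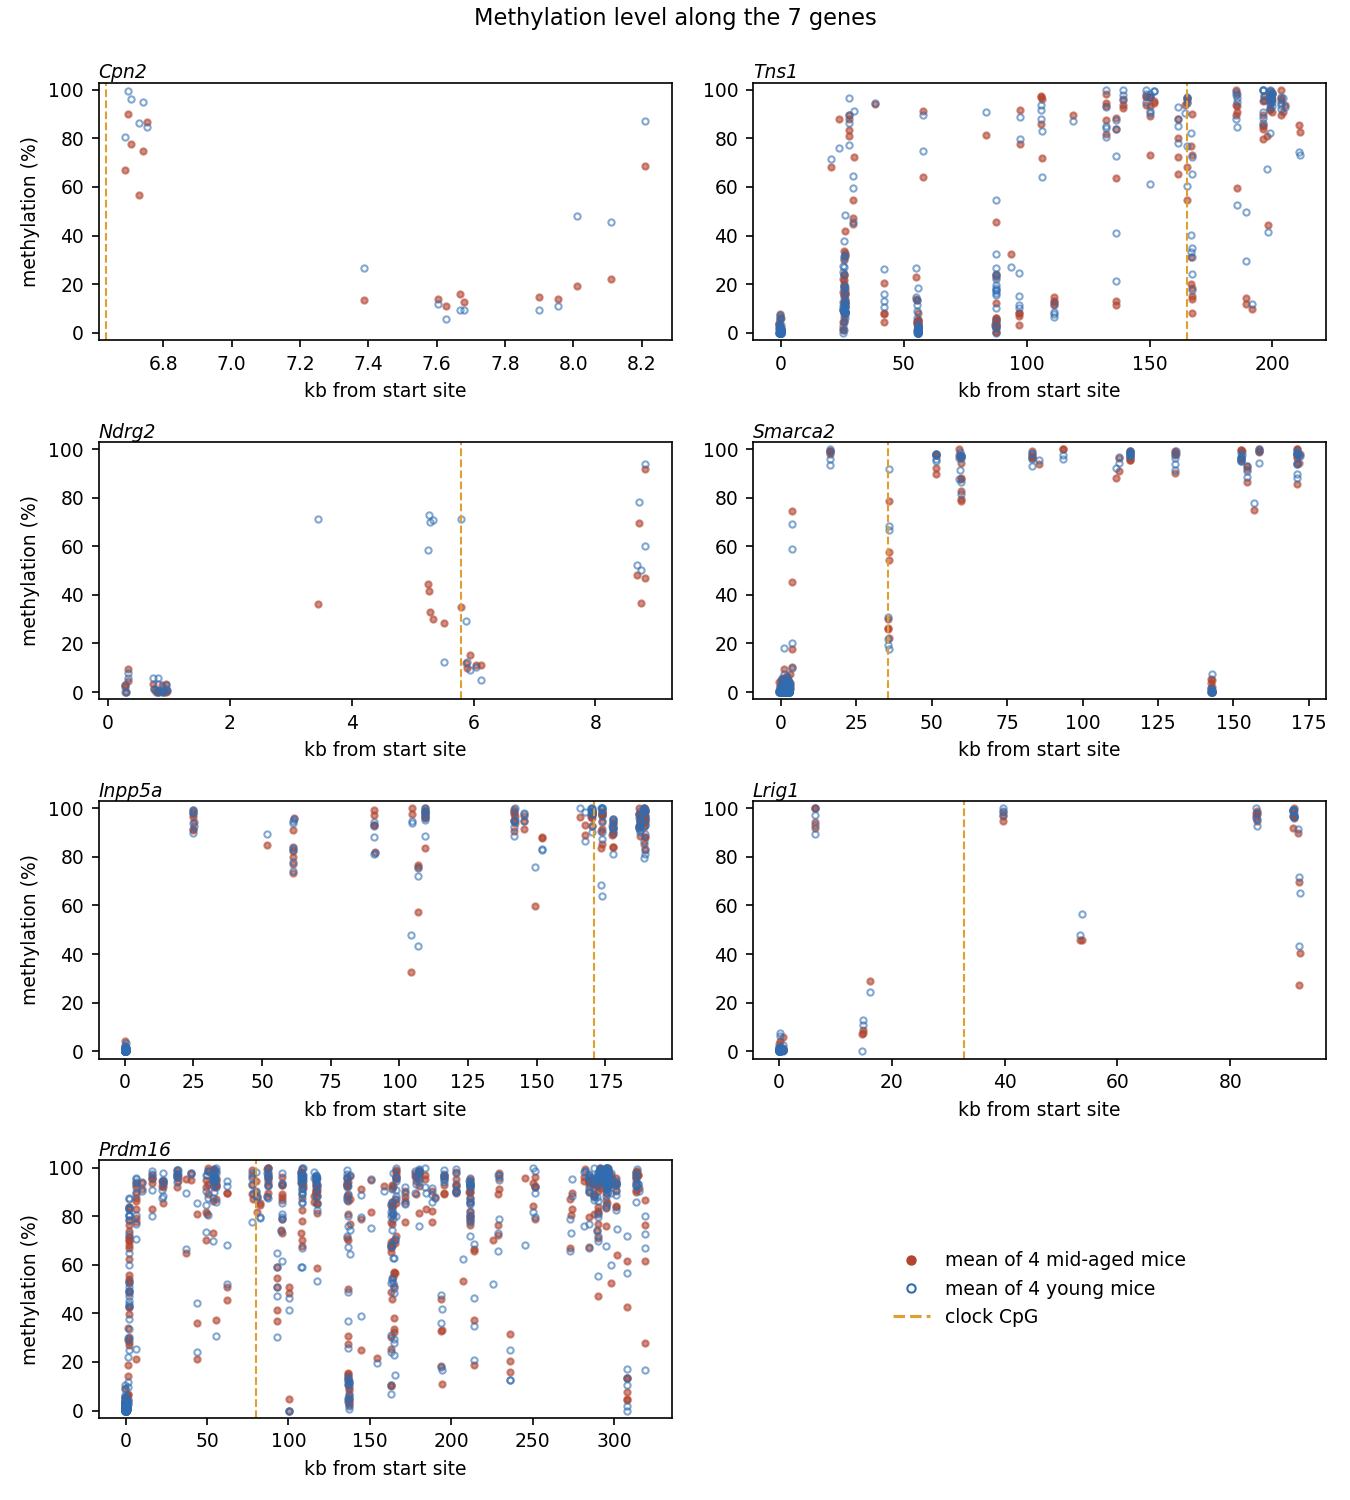
Mean methylation (%) of each tested CpG against the distance from the start site in kb, 1 panel per gene, with filled red points for the mean of 4 mid-aged mice, open blue points for the mean of 4 young mice and a dashed line at the clock CpG. Start sites lie near 0% in both groups, most points of Inpp5a and Smarca2 farther into the gene lie above 80%, Tns1 has low patches in its introns, and at the 8 intermediate CpGs of Ndrg2 beyond 500 bases the mid-aged points lie below the young ones.

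Gene means did not pass the test for any of the 7 genes. By limma with a trend 0 of 7 were called, where 0.61% of 21968 gene means were called, and 1 of 7 (Ndrg2) had an unadjusted p under 0.05, where 12% of all gene means had. In 5 of the 7 genes, Cpn2, Tns1, Ndrg2, Smarca2 and Lrig1, the mean was lower in mid-aged mice, and 38.9% of all gene means were lower. Of the promoters 0 of 6 were called (0.0565% of 17684 promoters) and 0 had an unadjusted p under 0.05 (8.96% of all).

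**Figure D4:**
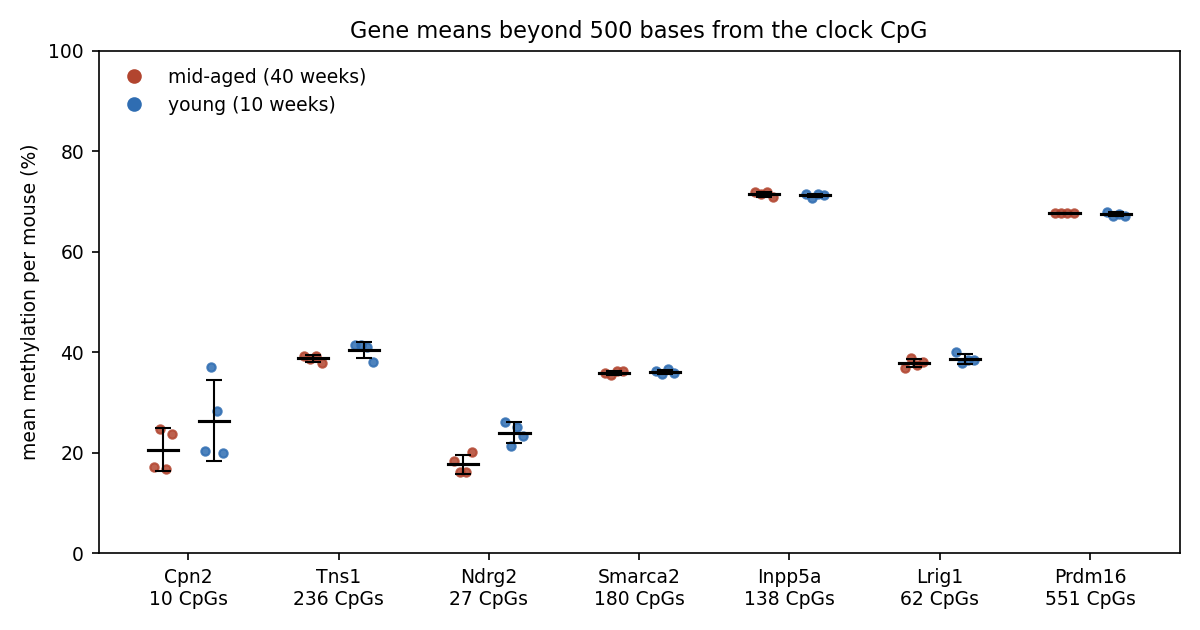
Mean methylation (%) per mouse over the CpGs of each gene beyond 500 bases from the clock CpG, with the number of CpGs under each gene. Points are single mice, mid-aged to the left and young to the right, with the mean and SD of 4 mice. Ndrg2 is the gene whose groups do not overlap, with 17.7 ± 1.89% in mid-aged mice and 24 ± 2.05% in young mice.

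Clusters of at least 3 tested CpGs with at most 200 bases between neighbors were compared in the same way. Of 128 clusters beyond 500 bases 0 were called by limma, where 0.0784% of 91816 clusters were called, and 11 had an unadjusted p under 0.05, 9 of them lower (8.52% of all clusters were under this p). Mid-aged mice were lower in 64 and higher in 64. Of the 11, 6 were in Tns1, all lower, 2 in Prdm16, both higher, and 1 each in Cpn2, Ndrg2 and Lrig1, all lower. In Tns1, 14 of 23 clusters were lower, with a median of -1.72 points and a range of -10.4 to 6.11. The difference of 20.9 ± 9.98 points (SE) in a cluster of Prdm16 was the largest difference of all, with an adjusted p of 0.616, and held the CpG with as few as 5 reads. Its mid-aged mice had 66.7, 55.5, 54.5 and 59.5% and its young mice 61.4, 6.67, 40.9 and 43.5%, so the groups overlapped, and without young mouse 2 the difference was 10.4 points.

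**Figure D5:**
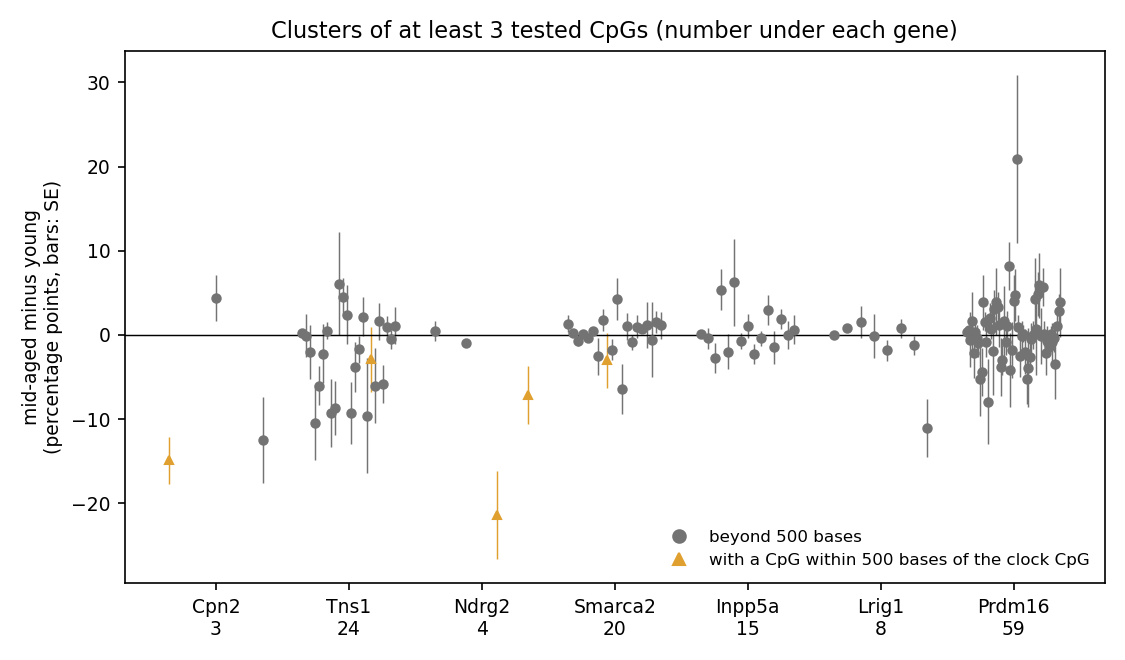
Difference in methylation of each cluster (mid-aged minus young, percentage points, with its SE), ordered within each gene from the start site on. Grey circles are the 128 clusters beyond 500 bases and orange triangles the 5 clusters with a CpG within 500 bases of the clock CpG. None was called. The lowest circle is in Cpn2 (-12.5) and the highest in Prdm16 (20.9), and the lowest triangle is in Ndrg2 (-21.4).

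The 4 calls also depended on single mice, apart from that of Tns1. Leaving out 1 mouse at a time gave 1 to 7 called CpGs, 1 without mid-aged mouse 2 or 3 and 7 without young mouse 1. The Tns1 call was kept without any 1 mouse (adjusted p 0.00064 to 0.0315). The Ndrg2 call in exon 6 was lost without mid-aged mouse 2 (adjusted p = 0.101), 3 (0.0776) or 4 (0.0807), that in exon 3 without mid-aged mouse 2 (0.201) or 3 (0.115), and that of Smarca2 without mid-aged mouse 2 (0.0832) or 3 (0.0689) or young mouse 3 (0.0524). The differences themselves kept their sign in each of these fits, from -42.3 to -31.2 points in exon 6 and from -38.5 to -31.2 points in exon 3 of Ndrg2 and from -14.2 to -12.1 points in Smarca2.

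Relatives of the 7 genes were followed as well: 60 genes of the same families or complexes, such as carboxypeptidases, tensins, NDRG genes, SWI/SNF subunits, inositol phosphatases, receptors of the EGF family and PRDM genes. Tested CpGs lay in 59 of them, 4210 in all. Of these 8 were called (0.19%), 3 lower (0.0713%) and 5 higher, near the 0.163% called and 0.102% called lower over all tested CpGs. No cluster (0 of 339), gene mean (0 of 58) or promoter (0 of 49) was called by limma, while 30 clusters (8.85%, against 8.52% of all clusters), 11 gene means (19%, against 12% of all) and 5 promoters (10.2%, against 8.96% of all) had an unadjusted p under 0.05.

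The called CpGs of these relatives were named after their values were seen. Tns3, a tensin like Tns1, gained at 4 CpGs of chromosome 11 that lie close together and so can share reads. The one with the smallest adjusted p had 53.2, 61.1, 59.4 and 54.4% in the mid-aged mice and 19.6, 21.2, 31.8 and 32.3% in the young mice. All mid-aged mice were above all young mice (30.8 points, adjusted p = 0.000266). Single CpGs were lower in mid-aged mice in Arid2, a subunit of a SWI/SNF complex (57.2% in mid-aged mice and 79.3% in young mice, adjusted p = 0.0068), in Lrig3 (53.6% in mid-aged mice and 80.6% in young mice, adjusted p = 0.011) and in Prdm2 (15% in mid-aged mice and 25.7% in young mice, adjusted p = 0.03). In Prdm10 a CpG with as few as 5 reads was higher, with 93.6% in mid-aged mice and 35.1% in young mice (adjusted p = 0.0254).

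As a description, the gene whose mean was most like that of each member over the 8 mice was sought among 13900 to 13903 genes with at least 20 tested CpGs. The highest Pearson r was 0.963 for Ndrg2 with Tbcel, which had 31.1 ± 1.7% in mid-aged mice and 36.2 ± 3.19% in young mice. For the others it was 0.981 for Cpn2 with Arf2, 0.971 for Tns1 with Mir8099-1, 0.96 for Smarca2 with Cxcr5, 0.943 for Inpp5a with Dhx29, 0.959 for Lrig1 with Csnk1g2 and 0.978 for Prdm16 with Gm12426. These are the highest of many values over 8 mice that share libraries and depth.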

How the data were processed

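RRBS data of hepatocytes from 4 mid-aged and 4 young mice were used, grouped by the age in the labels. The deposited files (mm10) list both strands of a CpG apart, each with its methylated reads as a percent and its coverage as a count of reads. The submitters' processing notes name BWA 0.6.2, Picard 1.115, SAMtools 1.3, Trim Galore 0.4.2 and FastQC as the tools of the authors. Which program called methylation was not given in the sources used here. Percent times coverage, which was whole within rounding, gave the methylated reads, and strands were summed. CpGs with few reads, or off chromosomes 1 to 19, X and Y, were left out, so fragments without an MspI site nearby are missing and low coverage widens the spread. Of the 897285 tested CpGs 897263 are CG in GRCm38.

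CpGs were compared by a quasi-binomial model with a dispersion moderated by limma, not below 1, from which CpGs with a dispersion of 0 were left out (a choice of earlier work on these data, made after moderation with all CpGs had given no call), with Benjamini-Hochberg adjustment over all tested CpGs. Means per mouse of clusters, genes (at least 5 CpGs) and promoters (1500 bases upstream to 500 downstream of the start site, 3 or more CpGs) were tested by limma with a trend, with calls at an adjusted p under 0.05 and, for clusters, at least 5 points. Depth was 29 to 76 reads per tested CpG as the median of a library. Python 3.11.15, numpy 2.4.6, scipy 1.17.1, pandas 2.3.3, matplotlib 3.10.9, pysam 0.24.0, R 4.3.3 and limma 3.58.1 were used, and the tests were tested on simulated data. No 2 libraries were copies of each other.

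The text names the called CpGs, up to 5 per gene and direction, the 2 CpGs per gene with the largest difference and at least 10 reads in every mouse, called clusters, family genes with a called cluster, promoter or gene mean, and the most similar gene; other CpGs and clusters named were chosen after their values were seen. The members and lists were chosen with earlier results of these data known. Alternatives were other coverage minimums (3 and 10 reads), thinned libraries, limma on M values, moderation with all CpGs, a replicate block, other distances and gaps, weighting by reads, limma without a trend and leaving out each mouse. Clock positions come from the study. Other data of the study were not used here.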

Additional observations from a re-analysis of the deposited data

Results flagged for a closer look

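In groups of 4 mice, 54 sets of values of the 7 genes were checked for a mouse far from the other 3, and 4 were found, where chance alone gives about 1 in 20. In the gene mean of Tns1 young mouse 4 was lowest with 38.1%, with the other young mice at 41 to 41.5%. In the Tns1 promoter mid-aged mouse 2 was highest with 1.6%, with the other mid-aged mice at 1.39 to 1.42%. In the Prdm16 promoter young mouse 1 was highest with 1.63%, with the other young mice at 1.33 to 1.36%. At the Lrig1 CpG in coding exon 15 young mouse 4 was lowest with 96.5%, with the other young mice at 100%, where any value below 100% would stand apart, so this one says nothing about that mouse. What sets the mice of the other 3 apart was not tested.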

How the results depend on the processing

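The number of called CpGs was the result that moved most. Over all tested CpGs it was 1466, and with libraries thinned to the smallest it was 938, with limma on M values 40, with moderation by all CpGs 0, and 612 to 2405 without 1 mouse at a time. Over the 7 genes beyond 500 bases it was 4, and under the same settings it was 1, 0, 0 and 1 to 7, with 1 without mid-aged mouse 2 or 3 and 7 without young mouse 1. Over the relatives it was 8, and under these settings, chosen for them after seeing the data, it was 5, 0, 0 and 2 to 12. The cause was not tested. Minimums of 3 or 10 reads kept 4 called CpGs in the 7 genes, leaving out 2000 bases gave 3 and leaving out none gave 5. Clusters and promoters of the 7 genes had 0 calls in every setting run, and gene means 0 except 1 (Ndrg2) with 3 reads. With CpGs weighted by their reads the difference of the Ndrg2 mean was -18 points (adjusted p = 0.147), and with 2000 bases left out it was -3.61 (adjusted p = 0.0862). The weighted value also holds the unequal numbers of reads along the gene in the 2 groups. The difference in mean methylation over all tested CpGs was 0.233 to 0.384 points without 1 mouse, so mid-aged mice stayed higher in each of these fits. With 3 against 4 mice the exact permutation test has few possible splits, so no conclusion is drawn from its p here. Of the values of single CpGs and genes, 372 kept their side of the threshold, 23 lost a call and 2 gained one. Most of the 372 had no call to lose, and all 23 losses were at the 4 called CpGs. In the 6 settings that kept all mice, the Tns1 call was kept in 3 and each of the other calls in 2. Without 1 mouse, 8 of 8 fits kept the call in Tns1, 5 in exon 6 and 6 in exon 3 of Ndrg2, and 5 in Smarca2. No value with a call changed sign, while sign changes of values without a call were not counted.

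A replicate block left 0 called CpGs over all tested CpGs, in the 7 genes and in their relatives. The labels do not say that the numbers pair the mice. Over 123318 CpGs of intermediate level the deviations of same-numbered mice had correlations of -0.002 to 0.008. Those of mice with unlike numbers had -0.009 to 0.01. Whether same-numbered mice shared a batch was not tested. Mid-aged libraries were deeper than young ones. At equal depth by thinning, the differences at the 4 called CpGs were -32 points in Tns1, -36.4 and -33.4 points in Ndrg2 and -12.6 points in Smarca2.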
